A study of Mus musculus with 2 samples.

Results

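Acot7, Nfib, Mgst1, Oat, Lmo4, Igfbp4, Maf, Zfp36l1, Yap1 and Cat are 10 genes that have been listed as disallowed in β cells, that is, kept at a low level in β cells while most other tissues use them. Binding of Rfx6 at these genes was examined in a β cell line, and 40 of the 23308 Rfx6 peaks lay in or near the 10 genes, which are 10 of the 22367 protein-coding genes of the annotation. A peak was counted for a gene when its summit, the base of highest signal, fell inside the gene or no more than 50 kb from either end. The same peak can count for several genes, so the share of peaks is not comparable with the share of genes. Acot7 alone had 18 of the 40. The genes came from earlier lists of disallowed genes and were chosen with earlier results of these data known. Their RNA levels were not analysed here.

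The peaks came from Min6b1 cells, a mouse line of insulin-secreting β cells, that were transfected with a pCMV-Tag2A-3HA-Rfx6 plasmid, so that Rfx6 with an HA tag (3HA-Rfx6) was made from the CMV promoter rather than from its own locus. Chromatin was precipitated with the anti-HA antibody 12CA5 and the DNA was sequenced (ChIP-seq). The control, labelled Min6b1 cells without the construct name, was precipitated with the same antibody. There was 1 library of each, so none of the values has a replicate error, and the control was used only as the background against which the authors called peaks. Both libraries carry the same growth text, which describes the transfection, so the control was taken as such from its cell type label. Nothing in the peak list could be used to check the identity of the cells or the amount of tagged protein.

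Rfx6 is a winged-helix transcription factor of the RFX family that is needed for the formation of islet cells and for insulin secretion by mature β cells. Proteins of this family bind the X-box, an imperfect inverted repeat of a short half-site. Disallowed genes include enzymes, transporters and regulators of growth whose products could disturb the coupling of glucose metabolism to insulin release, with lactate dehydrogenase A and the monocarboxylate transporter MCT1 as the classical examples. A peak in the vicinity of a gene is a position of binding and does not by itself say whether the gene is regulated.

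The DNA under the summits is shown first for the peaks that held the most reads. At the strongest peak, 42.8 kb downstream of Oat, and at the strongest peak of Igfbp4, 7.69 kb downstream of that gene, no half-site lay within 30 bases of the summit. The half-sites searched, on either strand, were AGCAAC together with its variant AGTAAC, and GGCAAC together with its variant GGTAAC. Below are 61 bases with the summit in the middle, on the plus strand of NCBIM37 (mm9), with half-sites, where present, in capitals. The single peaks of Mgst1 and Cat are shown with them because each held 1 such half-site. Other peaks not shown in this set also held one within 30 bases, among them peaks of Zfp36l1 (146 reads) and Acot7 (91 reads).
Oat, 340 reads, chr7:139706301-139706361: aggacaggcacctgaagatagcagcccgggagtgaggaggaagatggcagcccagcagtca
Igfbp4, 268 reads, chr11:98921624-98921684: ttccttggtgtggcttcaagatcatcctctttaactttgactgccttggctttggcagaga
Mgst1, 64 reads, chr6:138122022-138122082: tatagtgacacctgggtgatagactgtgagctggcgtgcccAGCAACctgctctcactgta
Cat, 69 reads, chr2:103282573-103282633: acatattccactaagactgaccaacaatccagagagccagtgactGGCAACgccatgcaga

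A further set is shown for peaks with a match to a looser form of the whole X-box, here called the relaxed X-box, in which both half-sites may deviate and 1 to 3 bases lie between them. Of the 16 peaks with such a match, those are shown whose match was within 20 bp of the summit and whose stretch touched no annotated exon, which leaves 7 peaks and, for the exon, passes over that of Lmo4. This choice was made after the matches were seen. The match is in capitals with 20 bases on each side, read 5′ to 3′ on the strand given, and the coordinates are those of the stretch printed.
Oat, 164 reads, minus strand, chr7:139747980-139748033: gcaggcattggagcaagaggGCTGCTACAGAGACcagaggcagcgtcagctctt
Zfp36l1, 146 reads, minus strand, chr12:81192411-81192464: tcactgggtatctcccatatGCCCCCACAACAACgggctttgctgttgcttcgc
Zfp36l1, 104 reads, minus strand, chr12:81216857-81216909: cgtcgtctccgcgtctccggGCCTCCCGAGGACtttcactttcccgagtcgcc
Nfib, 89 reads, minus strand, chr4:82266245-82266299: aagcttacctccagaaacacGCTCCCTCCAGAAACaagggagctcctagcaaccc
Igfbp4, 86 reads, plus strand, chr11:98936958-98937010: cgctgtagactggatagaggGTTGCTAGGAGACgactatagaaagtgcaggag
Acot7, 52 reads, minus strand, chr4:151523313-151523365: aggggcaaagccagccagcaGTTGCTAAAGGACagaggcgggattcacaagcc
Maf, 39 reads, minus strand, chr8:118216858-118216911: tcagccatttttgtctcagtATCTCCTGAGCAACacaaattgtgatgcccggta

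Each of the 10 genes had at least 1 summit in the gene or within 50 kb. Of all 22367 protein-coding genes 67.8% had one (15176 genes), as did 74.5% of the 1883 genes that are among the 200 nearest in length to any of the 10, so a summit at this distance is common for genes of this size. With the summit inside the gene, 6 of the 10 remained (Acot7, Nfib, Oat, Lmo4, Maf and Zfp36l1), against 31.3% of all protein-coding genes and 40% of the 1883 of similar length. Within 10 kb of the gene there were 7, the same 6 and Igfbp4, against 47.1% and 56%. A summit within 10 kb of an annotated start was found for 5, against 37.7% and 43.8%. Mgst1, Yap1 and Cat had summits only beyond 10 kb. Genes of 1 library are not replicates, and these shares describe this library. The 10 genes were also chosen with earlier results of these data known, so their count does not stand for disallowed genes in general.

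The 10 genes differed widely in their number of summits. Acot7 had 18 of the 40, Zfp36l1 had 5, Nfib and Oat had 4 each, Igfbp4, Maf and Yap1 had 2 each, and Mgst1, Lmo4 and Cat had 1 each. Because long genes reach further, each gene was set beside the 200 protein-coding genes nearest to it in length. Acot7 (93.7 kb) stood far above the median of 2 for its length, and 2 of its 200 genes had at least 18. Zfp36l1, the shortest of the 10 at 5.25 kb, had 5 against a median of 1, and 38 of its 200 genes had at least as many. Oat had 4 against a median of 2, with 54 of 200 at or above it, and Nfib, which spans 416 kb, had 4 against 2.5, with 75 of 200. The other 6 were at or below the median for their length, among them Lmo4 and Cat with 1 against a median of 2. Without Acot7, 22 summits remained at the other 9 genes.

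**Figure D1:**
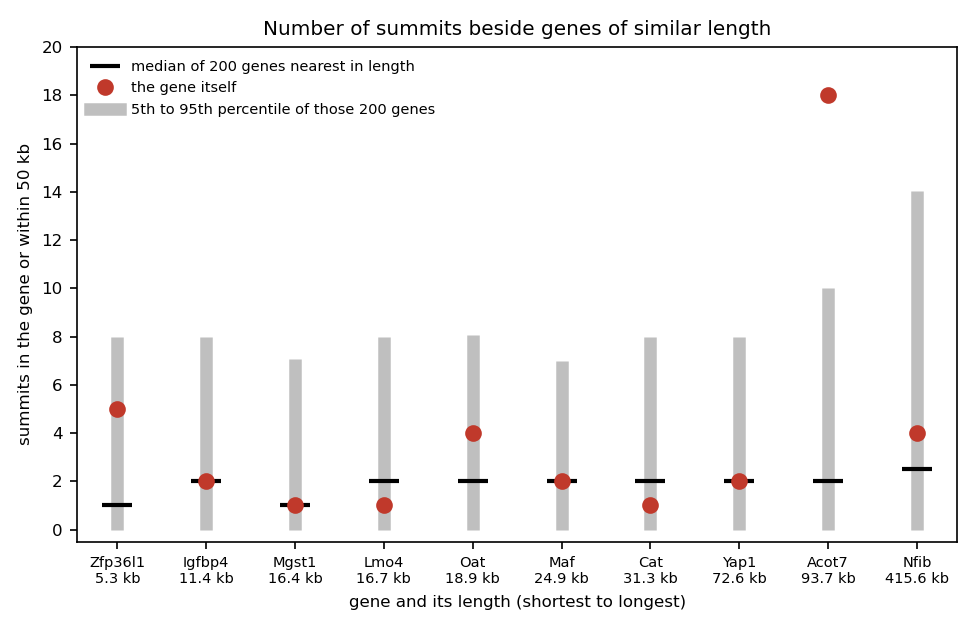
Number of summits in the gene or within 50 kb for each of the 10 genes (red points), ordered by gene length, beside the median (black bar) and the 5th to 95th percentile (grey) of the 200 protein-coding genes nearest in length. Acot7, at 18, lies above the grey range, which ends at 10, and the other 9 genes lie within theirs.

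By their medians, the 40 peaks were somewhat smaller than those of the whole list. The authors' count of reads ranged from 35 to 340 over the 40 peaks, with a median of 62, against 24 to 3489 and a median of 73 over all peaks. Fold enrichment over the background of the control ranged from 4.04 to 24.5, with a median of 7.42 against 8.54 over all peaks. Only 12 of the 40 (30%) held more reads than the median peak, against 49.2% of all peaks, and 17 exceeded the median fold enrichment. At 182 reads or more, the level reached by 10.1% of all peaks, there were 4 of the 40, or 10%. Without the 18 peaks of Acot7 the median was 63.5 reads and 9.42-fold, and 8 of the other 22 peaks (36.4%) held more reads than the median peak.

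**Figure D2:**
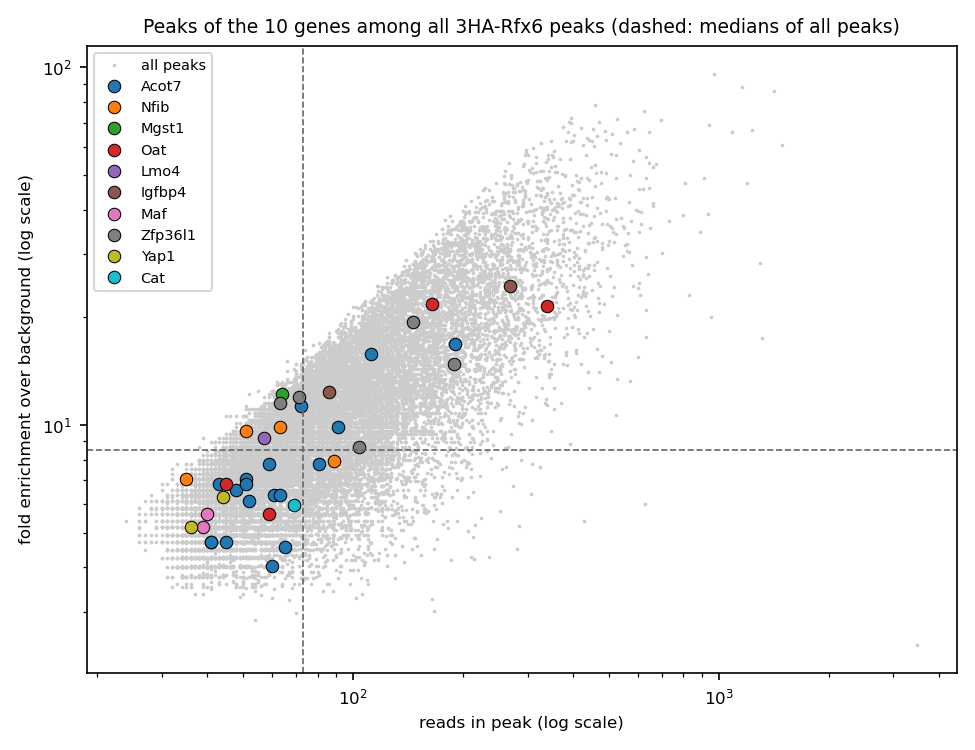
Reads in each peak against its fold enrichment, both on log scales, for the 40 peaks of the 10 genes (coloured by gene) and for all 23308 peaks (grey), with dashed lines at the medians of all peaks, 73 reads and 8.54-fold. Peaks of Oat and Igfbp4 reach furthest to the right among the coloured points, at 340 and 268 reads, and both peaks of Maf and of Yap1 lie in the lower left.

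Ordered by the peak with the most reads, Oat came first with 340 reads and Igfbp4 next with 268. Exact 95% Poisson intervals, which cover counting error only and treat reads as independent molecules, were 305 to 378 and 237 to 302, so these neighbours did not overlap. Acot7 (190 reads, 164 to 219) and Zfp36l1 (189 reads, 163 to 218) followed and could not be separated from each other. Nfib, at 89 reads (71 to 110), lay below both. From Nfib downward (Cat 69, Mgst1 64, Lmo4 57, Yap1 44 and Maf 40 reads), the intervals of neighbours overlapped. Reads are summed over the length of a peak, and the 4 leading peaks were 1425 to 2740 bp long against 1196 bp for the median peak. The highest peak was taken from 18 peaks at Acot7 but from 1 at Mgst1, Lmo4 and Cat. The intervals do not cover this choice.

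**Figure D3:**
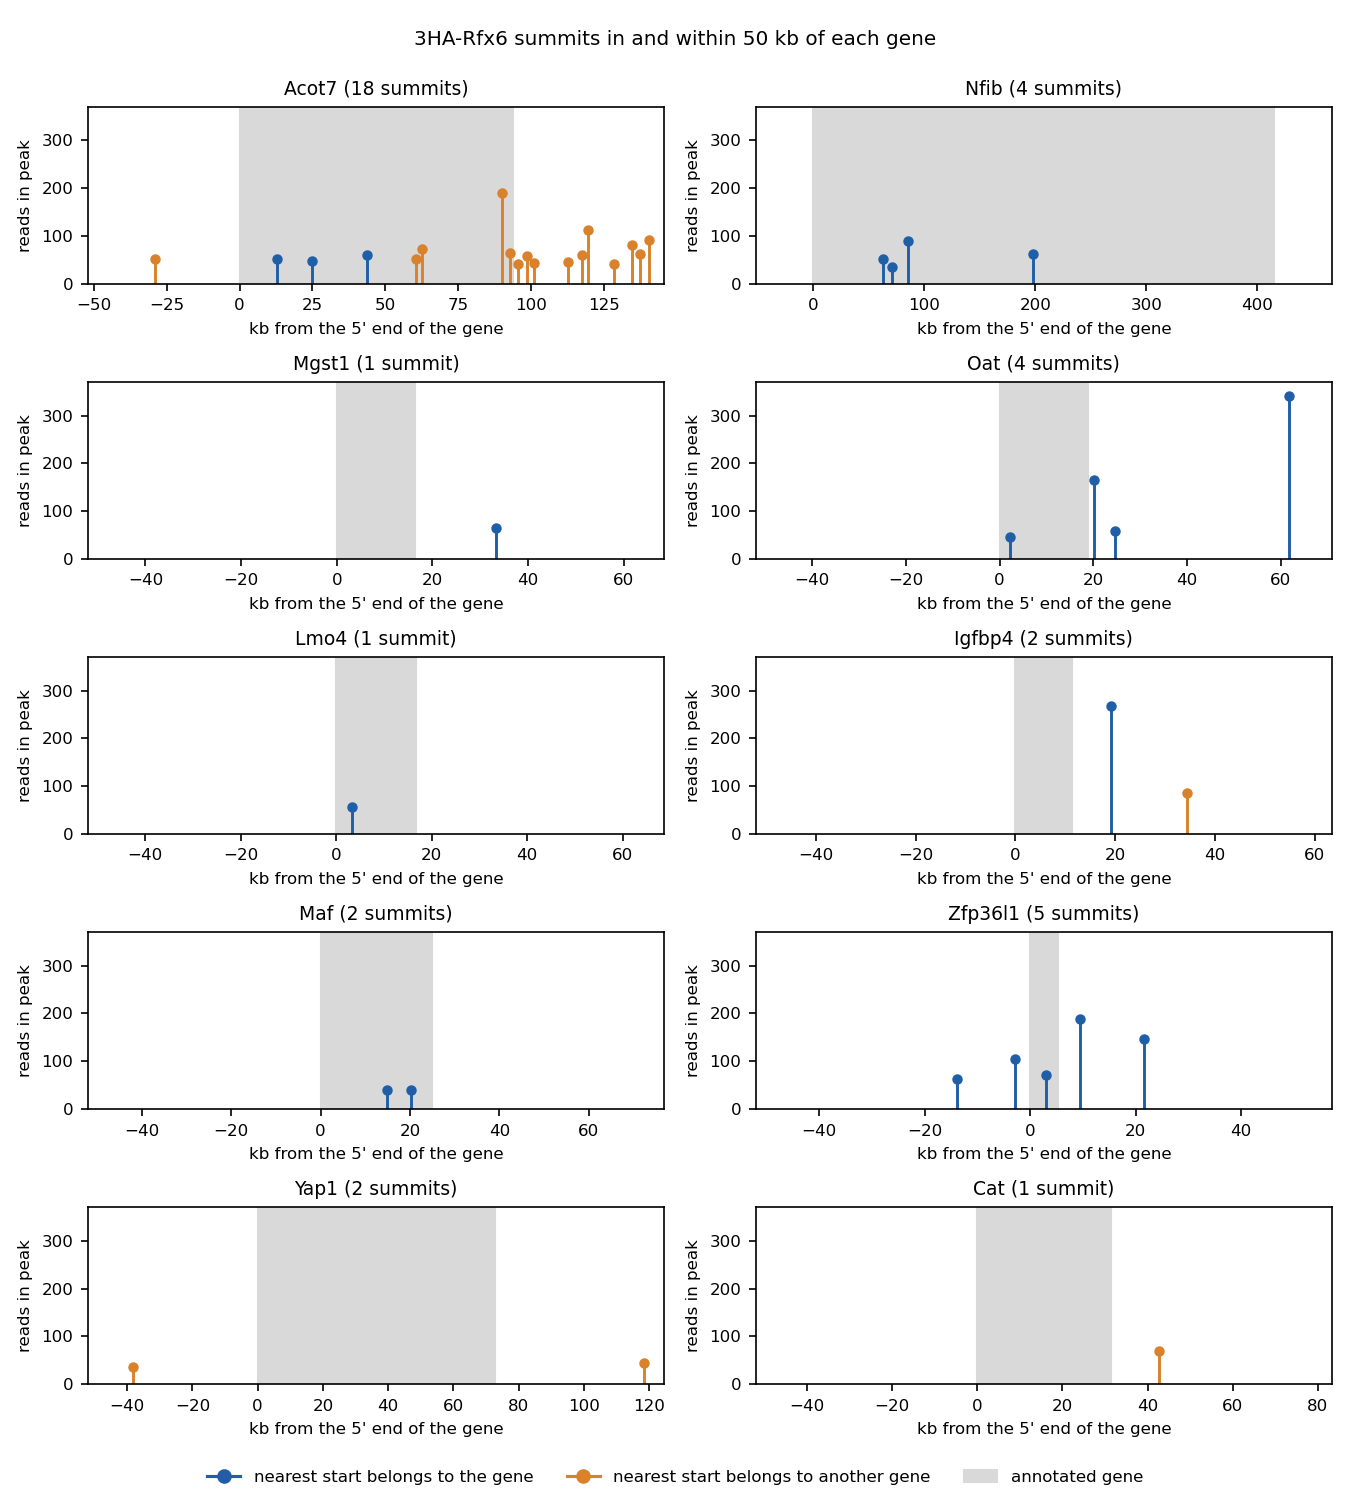
Positions of the 40 summits, in kb from the 5′ end of each gene in its own direction of transcription, with the height of each stem giving the reads in the peak. The grey block is the annotated gene, and orange stems mark summits whose nearest protein-coding start belongs to another gene. The stems of Nfib, Mgst1, Oat, Lmo4, Maf and Zfp36l1 are blue, and 15 of the 18 of Acot7 and those of Yap1 and Cat are orange.

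Of the metabolic enzymes, Acot7, a cytosolic acyl-CoA thioesterase that releases free fatty acids from their CoA esters, is annotated on chromosome 4, plus strand, between 151552243 and 151645964 (ENSMUSG00000028937.8). Its 18 peaks held 41 to 190 reads with a median of 59.5. The 7 inside the gene were all intronic. In intron 1 of Acot7-201 there were 2, of 51 and 48 reads, which followed the starts of Acot7-002 and Acot7-003 by 4.73 and 3.16 kb. Intron 3 held 1 of 60 reads, whose fold enrichment of 4.04 was the lowest of the 40. Intron 6 held 2, of 51 and 72 reads, and intron 8 held 2, of 190 and 65 reads. The peak of 190 reads, from 151641562 to 151644301 with its summit at 151642248, was 16.8-fold enriched, and 9.13% of all peaks held at least as many reads. It is near the end of Acot7 and 6.09 kb upstream of a start of the next gene, Gpr153.

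Acot7 lies in a crowded neighbourhood, and whether this bears on its number of summits was not tested. Within 50 kb of the gene 7 protein-coding genes were annotated, Acot7 included, against a median of 3 for its 200 genes of similar length. Of those 200, 6 had at least as many genes in reach, and these had a median of 3 summits and none had 18. The nearest protein-coding start was that of Acot7 for only 3 of the 18 summits. For the others it was that of Gpr153, an orphan G protein-coupled receptor (7 summits), Icmt, which methylates prenylated proteins (3), Rnf207, a RING finger protein (3), Espn, an actin-bundling protein (1) and Hes3, a bHLH repressor (1). Several of these summits lay at the starts of the neighbours. The peak of 112 reads was 358 bp after the start of Icmt, and its 200 bp were the richest in GC of the 40 (74.1%, 25 CpG). A peak of 43 reads was 82 bp after a start of Gpr153, and the peak upstream of Acot7, with 52 reads, was 159 bp upstream of a start within Espn. With summits counted only inside the gene, Acot7 had 7 against a median of 1, and 8 of its 200 genes had at least as many.

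Oat, the mitochondrial ornithine aminotransferase, which joins the metabolism of ornithine with that of glutamate and proline, is annotated on chromosome 7, minus strand, between 139749158 and 139768081 (ENSMUSG00000030934.8). It had the strongest peak of the 40, with 340 reads and a fold enrichment of 21.6 and its summit at 139706331, 42.8 kb beyond the 3′ end of the gene. Of all peaks, 1.72% held at least as many reads. Its score (the −log10 p-value of the peak calling multiplied by 10), 1889, was the highest of the 40, and so was its FDR, 7.92%. A high FDR did not mark a weak peak here, since the lowest FDR of the 40, 1.75%, was at the peak with the lowest score. A peak of 164 reads (140 to 191) with nearly the same fold enrichment, 21.8, lay 1.16 kb beyond the 3′ end, and a weaker one of 59 reads lay 5.61 kb beyond it. The peak inside the gene, in intron 1 and 2.17 kb after the start, held 45 reads. The start of Oat was the nearest protein-coding start for all 4. In this annotation 1 very long transcript gives Fgfr2 a span of 3009 kb, from 137305965 to 140315033, that covers Oat and all 4 peaks, whereas every other transcript of Fgfr2 ends at or before 137410322.

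Mgst1, a membrane-bound glutathione transferase that protects lipids from oxidation, and Cat, the catalase that degrades hydrogen peroxide, each had 1 peak, and neither peak was in the gene. That of Mgst1 (ENSMUSG00000008540.5, chromosome 6, 138088837 to 138105276, plus strand) extended from 138121795 to 138122645, 16.8 kb downstream, and held 64 reads (49 to 82) with a fold enrichment of 12.2. No other protein-coding gene was in reach, and the GC content of its 200 bp, 39.3%, was the lowest of the 40. That of Cat (ENSMUSG00000027187.4, chromosome 2, 103294006 to 103325317, minus strand) held 69 reads (54 to 87), was 5.99-fold enriched and lay 11.4 kb downstream, inside Elf5, a gene for an ETS factor of epithelial cells. The reads of the pair differed by less than their counting error. The median for genes of their length was 1 summit for Mgst1 and 2 for Cat.

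Among the transcriptional regulators, Nfib, a nuclear factor I protein that binds DNA as a dimer, is the longest gene of the 10 (ENSMUSG00000008575.10, chromosome 4, 81936077 to 82351654, minus strand). All of its 4 summits were in intron 1 of Nfib-010, the transcript that starts furthest upstream, and no other protein-coding gene was in reach. The peak with the most reads, 89, had its summit at 82266283 and a fold enrichment of 7.93. The others held 63, 51 and 35 reads, and that of 63 reads was the most enriched at 9.89-fold and lay 2.20 kb upstream of the start of the shorter transcript Nfib-001. The other 3 were 62.5, 71.2 and 85.4 kb after the start of Nfib-010. With 35 reads, the weakest of them was also the lowest of all 40 peaks, and 98.3% of all peaks held at least as many.

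Maf, a large basic leucine zipper factor related to MafA of β cells, occupies 118206842 to 118231694 of chromosome 8, minus strand (ENSMUSG00000055435.6). Its 2 summits were both in intron 2 of Maf-001, 14.1 and 19.6 kb after the start. They held 39 and 40 reads, with fold enrichments of 5.18 and 5.65, so both were weak and indistinguishable. Lmo4, a LIM-only protein that bridges other transcription factors, had a single peak (ENSMUSG00000028266.11, chromosome 3, 143851494 to 143868184, minus strand). The summit, at 143864961, was 320 bp after the start of Lmo4-002 and in coding exon 2 of the longer transcript Lmo4-001, and it was the only one of the 40 within 1 kb of a start of its own gene. It held 57 reads (43 to 74), was 9.18-fold enriched and lay in sequence with 62.2% GC and 15 CpG.

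Yap1, the transcriptional coactivator held in check by the Hippo kinases, had no peak in the gene or within 10 kb (ENSMUSG00000053110.7, chromosome 9, 7931999 to 8004596, minus strand). Its 2 summits were 45.7 kb downstream and 38.2 kb upstream, with 44 and 36 reads and fold enrichments of 6.29 and 5.18. Neither was nearest to a start of Yap1. The first was nearest to Birc3, which encodes an inhibitor of apoptosis, and the other was 57 bp after a start of 9230110C19Rik. Of the 200 genes nearest to Yap1 in length, 114 had at least 2 summits.

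Zfp36l1 encodes a zinc finger protein that binds AU-rich elements and promotes the decay of mRNAs. Its 5 peaks surrounded a gene of 5.25 kb (chromosome 12, 81208747 to 81214000, minus strand, ENSMUSG00000021127.6), and no other protein-coding gene was in reach. Downstream, 189 reads lay 4.15 kb and 146 reads 16.3 kb from the gene, with fold enrichments of 14.8 and 19.5. In coding exon 2 a peak held 71 reads and was 12.0-fold enriched. Upstream, a peak of 104 reads was 2.89 kb before the start, in sequence with 70.6% GC and 30 CpG, the most CpG of the 40, and a peak of 63 reads was 13.9 kb before it. Within 10 kb Zfp36l1 had 3 summits, and 15 of its 200 genes of similar length had at least 3. Each of the 5 peaks exceeded the median fold enrichment of all peaks, 8.54, although that of 104 reads did so narrowly at 8.71.

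Igfbp4, a secreted protein that binds insulin-like growth factors, had both of its peaks downstream (ENSMUSG00000017493.5, chromosome 11, 98902558 to 98913969, plus strand). The nearer one, from 98920789 to 98922213, was 7.69 kb beyond the gene and held 268 reads. Its fold enrichment of 24.5 was the highest of the 40, and 3.61% of all peaks held at least as many reads. Its score, 1592, and its FDR, 6.49%, were each the next highest of the 40 after those of the leading Oat peak. The other, of 86 reads (69 to 106) and 12.4-fold enriched, was 23.0 kb downstream, inside Tns4, which encodes a focal adhesion protein, and 13.7 kb after its start. Of the 200 genes of similar length 108 had at least 2 summits, so the number at Igfbp4 was a common one for its length.

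Most of the 40 summits were away from the starts of the genes. There were 20 downstream of the gene, 14 in introns, 4 upstream and 2 in coding exons, with median reads of 66.5, 51, 57.5 and 64. Within 10 kb of a start of its own gene lay 8, within 5 kb 7 and within 1 kb only that of Lmo4. Within 1 kb of a start of any protein-coding gene lay 8 (20%), against 21.0% of all peaks. The nearest protein-coding start was that of the member itself for 21 summits and that of another gene for 19, of which 15 were at Acot7. Base composition was near that of the whole list, with a median GC content of 56.2% against 54.2% and a median of 3 CpG in the 200 bp for both.

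The 50 kb limit fell between summits 46.9 and 54.0 kb from their gene, with none between these distances. Just inside it were the summits 46.9, 43.7 and 41.0 kb from Acot7 (91, 63 and 81 reads). The summits 45.7 kb from Yap1 (44 reads) and 42.8 kb from Oat (340 reads) were also just inside. A limit below 42.8 kb would leave out this Oat peak, which held the most reads of all those counted. Just outside were summits 54.0 kb from Acot7 (46 reads), 64.7 kb from Oat (70 reads) and 71.5 kb from Igfbp4 (98 reads), and Igfbp4 had another, of 247 reads, at 74.4 kb, nearest to Rara.

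Matches to the X-box were sought in the 100 bp on either side of each summit. A strict form was GTNACC or GTNGCC, then 0 to 3 bases, then any of the 4 half-sites given above, and each strict match therefore also holds a half-site. None of the 40 peaks had it. A count of 0 of 40 allows a share of up to 7.5% when 0 is read as at most 3 counts, or up to 8.81% by the exact 95% interval, and 6.44% of all peaks had a match (exact 95% interval 6.12 to 6.76), against 0.253% of windows 1 kb to the right of all peaks. With 40 peaks, a share like that of the whole list was thus not detectable as different from 0. A half-site alone was present in 21 of the 40 (52.5%, 36.1 to 68.5), against 60.9% of all peaks and 24.7% of the windows 1 kb to the right of them. The relaxed X-box was present in 16 (40%, 24.9 to 56.7), against 46.0% of all peaks and 23.0% of windows to the right. In the windows to the right of the 40 peaks each of these latter forms was found in 12 (30%), and their intervals (16.6 to 46.5) overlapped those at the summits.

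**Figure D4:**
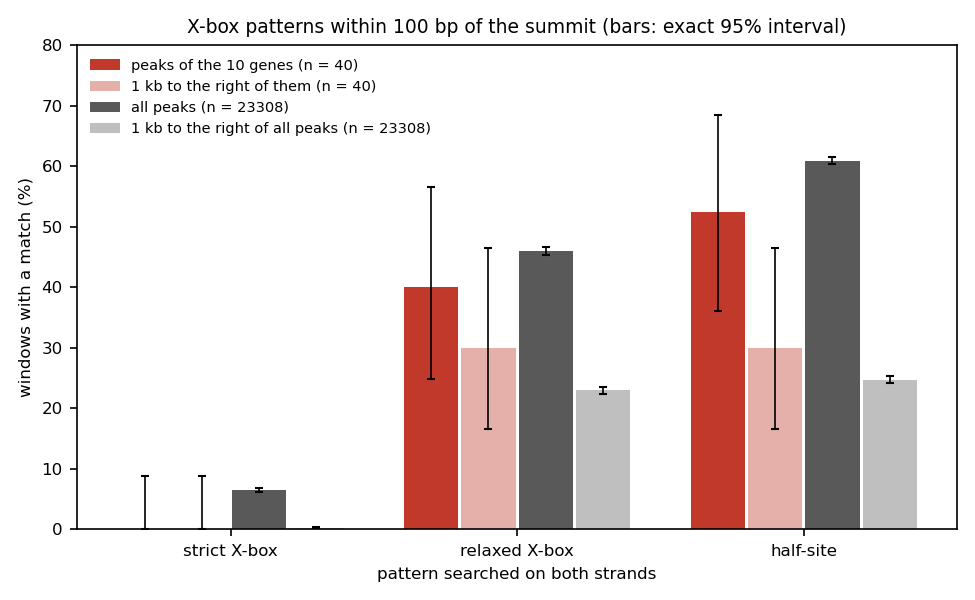
Share of windows, in percent, with a match to the strict X-box, the relaxed X-box or a half-site within 100 bp of the summit, for the 40 peaks, for all 23308 peaks, and for equally long windows 1 kb to the right of each. Error bars are exact 95% binomial intervals, and those of the 40 peaks (40% for the relaxed form, 52.5% for the half-site) include the shares of all peaks, 46.0% and 60.9%.

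By gene, the relaxed form was found at both peaks of Maf, at 3 of 5 of Zfp36l1, at 6 of 18 of Acot7, at 1 of 4 of Nfib and of Oat, at 1 of 2 of Igfbp4 and of Yap1, and at the peak of Lmo4. At the peaks of Mgst1 and Cat only a half-site was found, in the stretches printed above. The best placed were the match of Oat on the minus strand, 1 bp from the summit of the peak of 164 reads, that of Nfib, 4 bp away, and that of Zfp36l1 at the peak of 104 reads, which covered the summit. The matches printed for Igfbp4 and Acot7, 19 and 13 bp from the summit, read as a match on both strands. Maf, with 39 and 40 reads, had a match at both peaks, and the 4 peaks with 182 reads or more (Oat 340, Igfbp4 268, Acot7 190 and Zfp36l1 189 reads) had none to the relaxed form. A half-site was present within 100 bp of the summit in 2 of these 4, those of Igfbp4 and Zfp36l1. Among all 2359 peaks with that many reads, 50.1% had the relaxed form and 64.8% a half-site. This comparison was looked at after the values were seen, and 4 peaks cannot separate such shares. A match is a stretch of letters and not proof of a bound site.

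Other genes were set beside the 10. Of 7 further disallowed genes, 3 had a summit within 50 kb (42.9%), namely Smad3, a mediator of TGF-β signalling, with 10, Slc16a1, which encodes MCT1, with 5, and Ldha, lactate dehydrogenase A, with 3. The relatives of the transcriptional regulators differed. All 3 other nuclear factor I genes had a summit, with 9 at Nfic, 6 at Nfix and 1 at Nfia. Mafa, a relative of Maf and an activator of the insulin gene, had 8 summits with a highest peak of 356 reads, whereas Maf had 2 with at most 40. Of the 3 other LIM-only genes 2 had a summit, with 5 at Lmo1. Wwtr1, the paralogue of Yap1, had none, and 9 of 10 genes of the Hippo pathway had one, with 9 at Stk4 and 6 each at Tead1 and Nf2.

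For the enzymes and the other families, 11 of 12 acyl-CoA thioesterase genes had a summit, with 10 at Acot11, although clustered genes such as Acot1 to Acot4 share peaks. Both other microsomal glutathione transferase genes had one, as did 9 of 13 genes for antioxidant enzymes, with 6 at Gpx3. All 6 other genes for IGF binding proteins had one, with 6 at Igfbp6, and so did 2 of the 3 other ZFP36 genes. Over all these lists, 50 of 63 genes (79.4%) had a summit within 50 kb, beside 67.8% of all protein-coding genes. That share is also the one to set beside each single list, and it is not matched for gene length. Clustered genes that share peaks each count in the 50.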

How the data were processed

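ChIP-seq with the anti-HA antibody 12CA5 was done on 1 library of 3HA-Rfx6 transfected Min6b1 cells and 1 control library. The submitters' processing notes name CASAVA 1.8.2, Bowtie, MACS 1.4.2 and the mm9 build, and the authors deposited 1 peak list. Its columns are the count of 3HA-Rfx6 reads per peak, without normalization, the fold enrichment as a ratio to the background from the control and the local signal, a score (the −log10 p-value multiplied by 10), and the FDR in percent, all as the authors deposited them. MACS used a p-value cutoff of 1e-05 and at most 1 read per position, which left 33949757 of 49443917 reads of the 3HA-Rfx6 library and 3567375 of 16911298 of the control. The fold enrichments rest on this shallower control, whose effect on them was not tested. PCR duplicates cannot be told from independent molecules.

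Summits (start + summit − 1) were placed on NCBIM37 with GENCODE M1. The last peak on each of 20 chromosomes fell within the chromosome lengths of that build. Peaks were given to every gene in reach, so neighbouring genes can share them. Gene counts were set beside all protein-coding genes and the 200 nearest in length, and no test was run, since sites and genes of 1 library are not replicates. Intervals are exact (Poisson for reads, binomial for shares). The assignment and the search for the strict X-box were tested on simulated data, and the searches for the relaxed form and the half-site were not. The genes named are the 10 members, genes whose start is nearest to a summit or that contain it, and at most 3 genes of each list of relatives and partners, those with the most summits. The members and lists were chosen with earlier results of these data known. The RNA-seq of the study was not analysed here. The count of 1 list of relatives is not reported here. The alternatives were other distances, peak sets limited by fold enrichment, score or FDR, and assignment by any part of the peak or by the nearest start. Others were other numbers of genes of similar length, other rankings, other forms of the X-box and a narrower window. The tools were Python 3.11.15 with pandas 2.3.3, numpy 2.4.6, matplotlib 3.10.9 and scipy 1.17.1.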

Additional observations from a re-analysis of the deposited data

How the results depend on the processing

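With 1 library per condition no replicate could be left out. No paired analysis was possible because each condition had 1 library and no result comes from a test. The number of the 10 genes with a summit was 10 within 50 kb, within 100 kb and with any part of the peak counted, 9 within 20 kb, 8 where the nearest protein-coding start had to be the gene's own, 7 within 10 kb, 6 inside the gene and 5 within 10 kb of a start. It was 5 with a fold enrichment of at least 10, 6 in the 50% of peaks with the highest scores and 0 with an FDR of at most 1%, a limit that leaves 10 peaks in all. The total of 40 summits was 54 within 100 kb, 29 within 20 kb, 24 within 10 kb, 16 inside the genes and 21 by the nearest start. It was 12, 17 and 0 under the limits on fold enrichment, score and FDR. Leaving out Acot7, an alternative chosen after seeing the data, gave 22. The FDR limit did not keep the stronger of the 40 peaks. Their lowest FDR, 1.75%, was that of the Nfib peak of 35 reads, which had the lowest score. Their highest FDR was that of the Oat peak of 340 reads, which had the highest score. Beside genes of similar length, 4 members were above the median with 100, 200 or 500 genes, and 6 with summits within 10 kb. The strict X-box was found at 0 of 40 summits with 100 or 50 bp on either side, the relaxed form at 16 and a half-site at 21. By construction each strict match holds a half-site, whereas the relaxed form does not include every strict match. The peak with the most reads was also first by fold enrichment for 7 of the 10 genes and by score for 9. Counting error left neighbours in the order of highest peaks unseparated from Nfib (89 reads) downward and between Acot7 and Zfp36l1, and the absence of replicates leaves the spread of every value unknown.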
